A study of Mus musculus with 6 samples.

Results

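The 37 genes described here are those that stayed low in Jmjd6-/- fetal thymic stroma whether or not it had been stimulated with RANKL. They were chosen from the measured values themselves. A gene was taken when its smallest value in the 3 WT libraries was at least 1 FPKM (mapped fragments scaled to transcript length and library size) and its largest value in the 3 Jmjd6-/- libraries was at most 0.5 times that WT minimum, provided that it did not lie on chromosome X or Y. Of the 22513 gene entries in the table, 11439 were autosomal with every WT value at 1 FPKM or more, and the 37 genes are 0.323% of those. Because the difference between genotypes chose these genes, it is described below without a test. Tests are given only for their response to RANKL and for the difference of that response between genotypes, and, for marker genes outside the 37, for genotype.

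Messenger RNA was sequenced from fetal thymus organ cultures of C57BL/6 background, prepared from thymic lobes of E15.5 WT and Jmjd6-/- embryos and kept with 2-DG (2'-deoxyguanosine), which removes haematopoietic cells and leaves mainly stroma. The Jmjd6-/- embryos came from crosses of heterozygous mice that had been backcrossed to C57BL/6, and the deletion was present in every cell of the lobe rather than in the epithelium alone. According to the labels all cultures had 2-DG for 4 days. There was 1 unstimulated WT library and 1 unstimulated Jmjd6-/- library, and 2 libraries of each genotype that had received RANKL, the ligand that drives maturation of medullary thymic epithelial cells (mTECs). The series' design text calls the repeats technical duplicates, while the study calls them samples, and nothing says how many lobes or embryos each held, so that p-values below measure only the spread between these libraries.

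The Jmjd6 protein belongs to the family of JmjC-domain oxygenases, which use iron and 2-oxoglutarate, and its known targets include proteins that bind RNA and take part in splicing. Thymic stroma is a mixture in which epithelial cells of the cortex and medulla sit among capillaries and a capsule and septa of mesenchymal cells that secrete collagens, proteoglycans and elastic fibre proteins. RANKL signals through RANK on medullary epithelium and through NF-κB. In RNA from whole cultures, fewer cells of a type and less RNA per cell cannot be told apart.

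The libraries were of unequal depth, from about 16000000 to 28500000 fragments as judged from the spacing of low values. The column totals ran from 501418 to 564985 FPKM. Epithelial markers of the labelled tissue were present, as the 14 cortical markers summed to 16127 to 24883 FPKM and the 14 measured mTEC markers to 4045 to 5603 FPKM over the 6 libraries. Macrophage markers also remained, summing to 638 to 864 FPKM, and none of them was lower in Jmjd6-/- stroma by limma. Other blood cell lists were mixed in this. By limma none of 5 tested B cell and none of 6 tested innate lymphoid markers was lower. Of 5 tested platelet markers none was lower and 1 was higher. Leaving out Beta-s, which the rule chose, none of 5 tested erythroid markers was lower. The mast cell, neutrophil and T cell lists did hold lower markers. By limma 4 of 10 tested mast cell markers were lower and none higher, against 3.38% and 2.05% of all tested genes. Of 9 tested neutrophil markers 2 were lower and 1 higher. Of 5 tested T cell markers 1 was lower, which was Thy1, a gene that is also in the mesenchyme list below. The unstimulated Jmjd6-/- library stood apart in genes of the Y chromosome, with Ddx3y at 0.0237 FPKM against 5.41 to 29.1 FPKM in the other 5 libraries. Without that library the rule chose 80 genes. Ddx3y also differed between the Jmjd6-/- RANKL libraries, at 23.9 and 5.41 FPKM.

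Across the 37 genes the genotypes differed by a median log2 ratio (Jmjd6-/- over WT), on the log2(FPKM + 0.1) scale used for all log2 values here, of -1.76 without RANKL and -1.99 with RANKL. The ratios ran from -8.17 to -0.94 and from -7.64 to -1.20, while the medians over all 15894 tested genes were 0 and 0.01. Leaving out Jmjd6 itself and its neighbour Mettl23, the other 35 genes had a median fall of 3.91-fold between the means of 3 libraries, and the largest was 15.7-fold in Car3. Most were genes of modest expression. Over all 37, WT means ran from 1.12 to 31.8 FPKM with a median of 4.86, against 14.1 for the 11439 genes that could have been chosen. The WT mean was over 10 FPKM for 10 of the 37 and under 5 FPKM for 19. In fragments, the lowest WT value stood for about 17.7 (2310015B20Rik), and 7 genes other than Mettl23 had a Jmjd6-/- value of under 10 fragments, so that the size of their fall is loosely set.

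**Figure D1:**
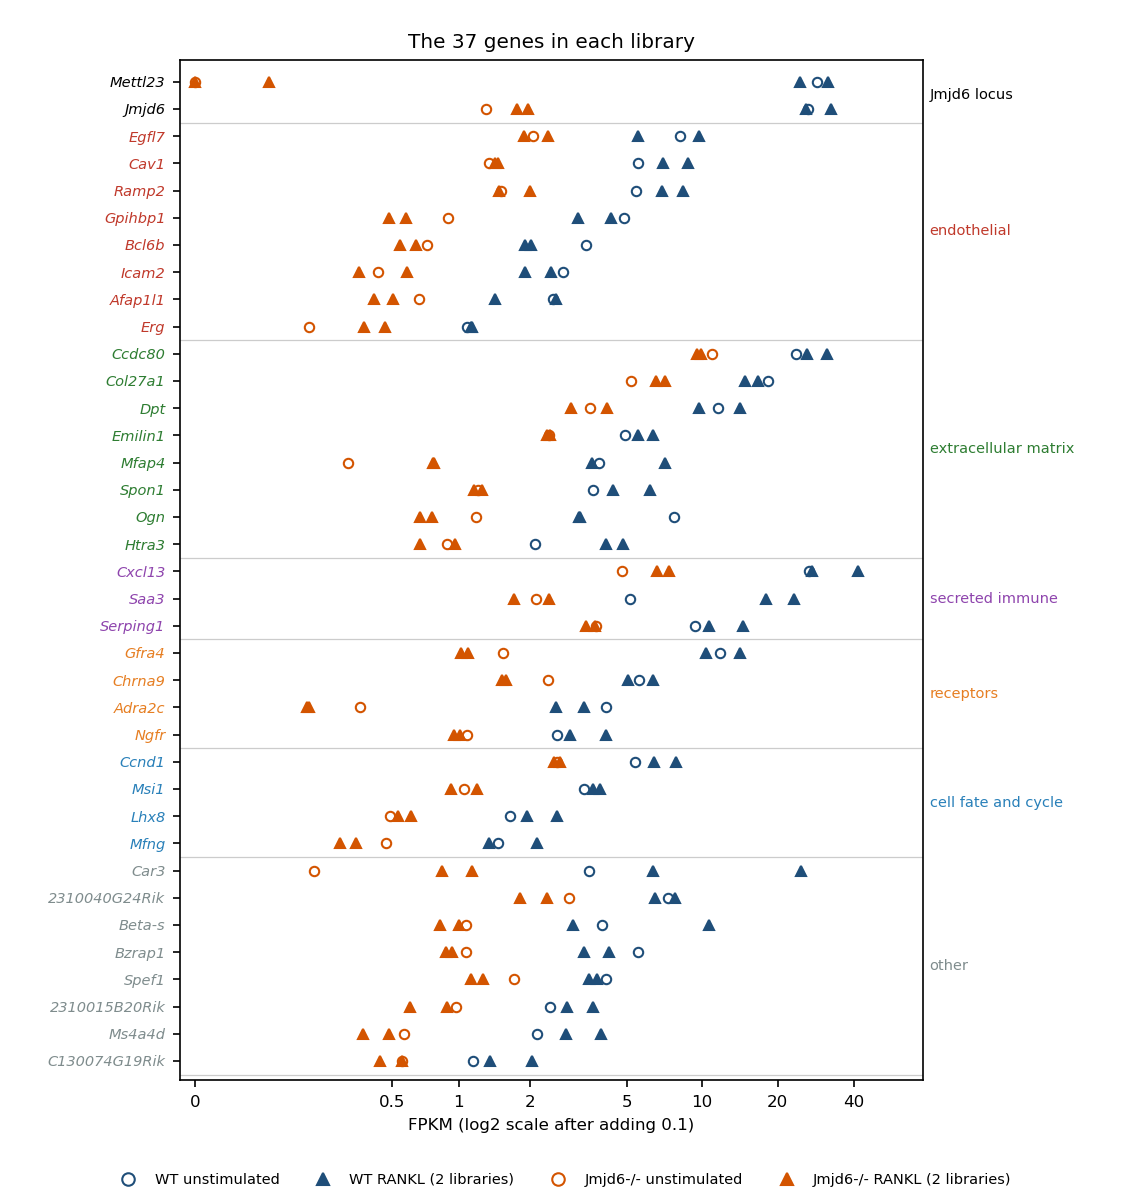
FPKM of the 37 genes in each of the 6 libraries, on a log2 axis after adding 0.1, grouped by the role of the gene product. Blue marks are WT and orange marks Jmjd6-/-, open circles are unstimulated and triangles RANKL-stimulated libraries. All orange marks lie left of all blue marks in each row because the rule required it. The width of the gap differs, from Mettl23 at 0 to 0.0949 against 24.5 to 31.6 FPKM to Emilin1 at 2.36 to 2.43 against 4.90 to 6.35 FPKM.

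A looser order, with every Jmjd6-/- library below every WT library at any distance, was met by 985 of the 11439 genes (8.61%), and the reverse order by 1099 (9.61%). The mirror rule, with the genotypes exchanged, chose 47 genes (0.41% of 11458). On X, Agtr2 and Chrdl1 met the same limits and were left out by the rule.

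The unstimulated and stimulated cultures can be set against each other because they share no library. With the same limits, 290 genes passed in the 2 unstimulated libraries and 324 in the 4 RANKL libraries, and 108 passed in both, which is 37.2% of the former and 33.3% of the latter. Of the 324, 178 were at 1 FPKM or more in unstimulated WT stroma, and 60.7% of these passed there too, against 2.46% of the 11774 genes so expressed. Passing in both states is less than the rule asked, since the 37 genes had to pass the limits across states as well.

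**Figure D2:**
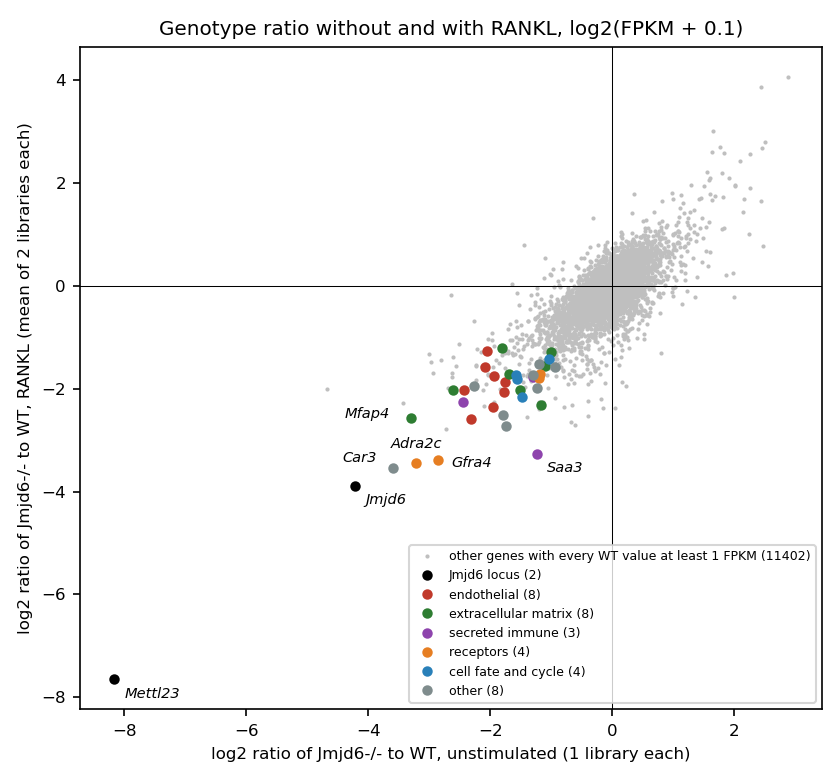
Log2 ratio of Jmjd6-/- to WT without RANKL (horizontal axis, 1 library of each genotype) and with RANKL (vertical axis, means of 2 libraries of each), after adding 0.1 to FPKM, for genes with every WT value at 1 FPKM or more. Grey points are the other 11402 genes and coloured points the 37 genes by role. The coloured points occupy the lower left, from Mettl23 at -8.17 and -7.64 to points at the edge of the grey cloud near -1 on both axes, and Saa3 lies well below its unstimulated ratio of -1.24 at -3.26.

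At the targeted locus, Jmjd6 (XLOC_003912, mm10 chr11:116837432-116843449, minus strand) had 26.3 FPKM in unstimulated WT stroma and 25.9 and 32.5 FPKM with RANKL. In Jmjd6-/- stroma it had 1.32 FPKM unstimulated and 1.96 and 1.78 FPKM with RANKL, so that the labels of all 6 libraries fitted the gene, with some signal left over the locus. Jmjd6 did not pass the test for RANKL (log2 change 0.31, SE 0.15, adjusted p = 0.218 from limma). Its neighbour Mettl23 (XLOC_003061, chr11:116843515-116849740, plus strand), which encodes a methyltransferase-like protein, fell further. Mettl23 had 28.7 FPKM in unstimulated WT stroma and 24.5 and 31.6 FPKM with RANKL, against 0 in unstimulated Jmjd6-/- stroma and 0.0949 and 0 FPKM with RANKL. A value of 0 was taken as 3 fragments. That is 0.115 FPKM in the unstimulated Jmjd6-/- library and 0.0936 FPKM in the second Jmjd6-/- RANKL library. With these values Mettl23 was about 280-fold lower without Jmjd6 between the means of 3 libraries. The first Jmjd6-/- RANKL library was kept at its value of about 4.07 fragments. This fold is an estimate, since the depths are approximate. No other gene of the 37 was at 0 in any library.

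Jmjd6 and Mettl23 are transcribed away from each other, with 65 bases between their entries. The interval, which both starts share, is shown because the 2 lowest genes of the group meet there. It is the plus strand of GRCm38 (the assembly behind mm10), with its 7 CpG dinucleotides in capitals:
Jmjd6-Mettl23 interval, chr11:116843450-116843514: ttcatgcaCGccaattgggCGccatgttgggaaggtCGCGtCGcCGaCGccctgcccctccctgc
Of its bases 67.7% are G or C, and the letters CCAAT occur in it. GENCODE annotates transcripts of the opposing genes that overlap, and Mettl23 also overlaps Srsf2 on the other strand and Mfsd11 on its own. The kit named by the study does not mark strand while the values were computed with a strand-specific setting, so reads of these overlapping genes may not have been kept apart.

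Genes known from blood vessels numbered 8 of the 37, a grouping made, like the others below, after the list was seen. Their median log2 ratio was -2.01 without RANKL and -1.95 with RANKL, and the falls between means of 3 libraries ran from 3.31-fold to 6.30-fold. Gpihbp1, which carries lipoprotein lipase across the capillary wall, had 4.87 FPKM in unstimulated WT stroma and 3.17 and 4.31 FPKM with RANKL, against 0.899, 0.579 and 0.483 FPKM in Jmjd6-/- stroma. Icam2, an adhesion molecule of endothelium and leukocytes, had 2.75, 1.90 and 2.45 FPKM in WT and 0.429, 0.589 and 0.345 FPKM in Jmjd6-/- stroma, in the same order of libraries. Both were at levels in Jmjd6-/- stroma that correspond to few fragments, about 7.66 to 22.8.

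Cav1, the coat protein of caveolae, which is also expressed outside endothelium, had 5.51 FPKM in unstimulated WT stroma and 8.79 and 6.99 FPKM with RANKL, against 1.35, 1.47 and 1.43 FPKM. The Jmjd6-/- libraries were thus close to each other and the WT libraries spread more widely. Egfl7, a secreted protein of endothelial cells whose gene holds the miR-126 hairpin, had 8.17, 5.54 and 9.70 FPKM in WT and 2.06, 1.89 and 2.37 FPKM in Jmjd6-/- stroma. Ramp2, the partner that makes the calcitonin receptor-like receptor respond to adrenomedullin, had 5.43, 6.91 and 8.35 FPKM in WT and 1.51, 2.01 and 1.49 FPKM in Jmjd6-/- stroma. In these 3 genes the largest Jmjd6-/- value was 0.266 (Cav1) to 0.428 (Egfl7) times the smallest WT value.

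Erg, an ETS family transcription factor that maintains endothelial identity, was the least expressed of all 37 genes. It had 1.08, 1.14 and 1.13 FPKM in WT, just above the limit of 1 FPKM, and 0.183, 0.462 and 0.366 FPKM in Jmjd6-/- stroma. Bcl6b, a transcriptional repressor related to BCL6, had 3.40 FPKM in unstimulated WT stroma and 1.91 and 2.02 FPKM with RANKL, against 0.722, 0.647 and 0.547 FPKM. Afap1l1, an actin filament associated adaptor, had 2.49, 1.43 and 2.58 FPKM in WT and 0.664, 0.508 and 0.410 FPKM in Jmjd6-/- stroma. For Bcl6b the unstimulated library was the highest of its genotype in both genotypes.

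A list of 10 endothelial markers, of which only Erg is among the 37 genes, was used to see whether other genes of this cell type moved as well. Leaving out Erg, whose order the rule fixed, every Jmjd6-/- library lay below every WT library in 8 of 9 genes, against 8.61% of the genes the rule could choose, and Vwf was the exception. The summed level of the list, Erg included, was 31.98, 19.2 and 23.5 FPKM in WT (unstimulated, then RANKL) and 12.5, 7.14 and 7.30 FPKM in Jmjd6-/- stroma. No marker of the list was at 0 in any library. With stimulation as a term in limma over all 6 libraries, 5 of the 9 list genes outside the 37 were lower in Jmjd6-/- stroma and none was higher, where 3.38% of all tested genes were lower and 2.05% higher. These were Cdh5 (log2 difference -1.65, SE 0.14, adjusted p = 0.00427), Pecam1, Tie1, Cldn5 and Kdr. Cdh5, the cadherin of endothelial junctions, had 9.48, 3.78 and 4.20 FPKM in WT and 2.72, 1.34 and 1.16 FPKM in Jmjd6-/- stroma, and it missed the rule because its unstimulated Jmjd6-/- value was over 0.5 times the WT values with RANKL. The count of 5 fell to 0 when no filter on low values was used, where the genes called lower among all tested fell from 538 to 3. It also fell when either Jmjd6-/- RANKL library was left out, as did the number called lower among all tested genes. The part of vessel content in the fall of the 8 genes was not tested.

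**Figure D3:**
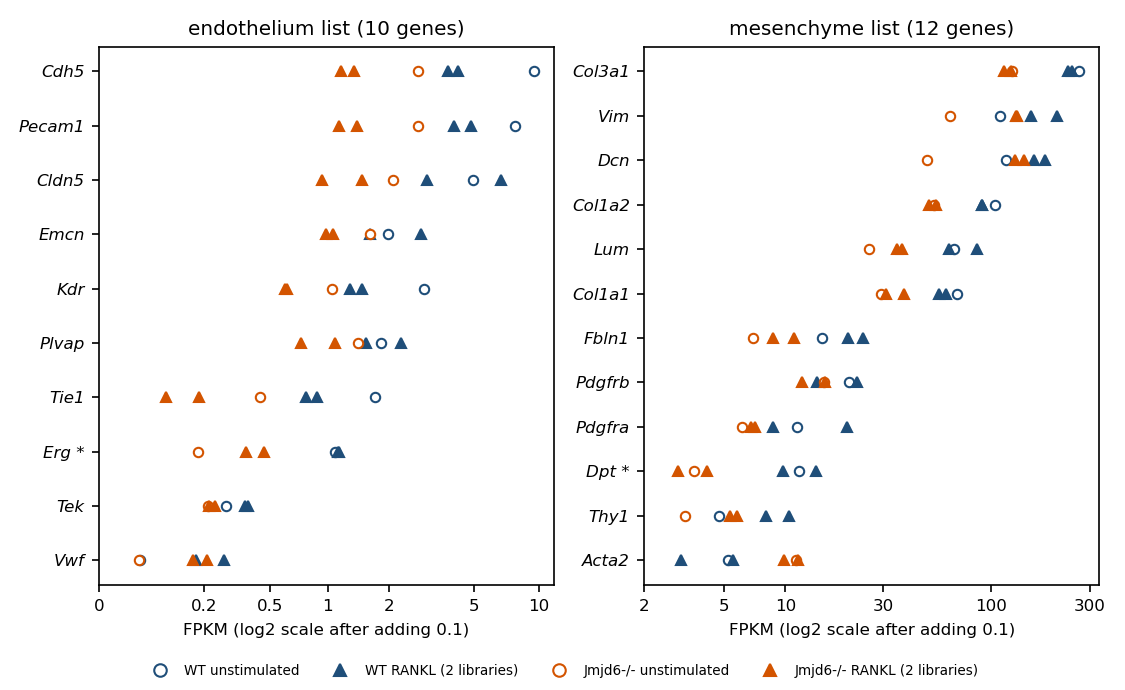
FPKM in each library, on a log2 axis after adding 0.1, of the 10 genes of the endothelium list (left) and the 12 genes of the mesenchyme list (right), ordered by WT mean. Blue is WT, orange Jmjd6-/-, open circles unstimulated and triangles RANKL, and an asterisk marks the 1 gene of each list that belongs to the 37. Apart from the marked genes, whose order the rule fixed, orange lies left of blue in 8 of 9 genes of the left panel and 6 of 11 of the right, and Acta2 shows the opposite order.

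Extracellular matrix proteins made up another 8 of the 37 genes, with median log2 ratios of -1.60 without RANKL and -1.87 with RANKL and falls from 2.34-fold to 7.85-fold. Mfap4, a microfibril-associated glycoprotein of elastic fibres, fell furthest. It had 3.86 FPKM in unstimulated WT stroma and 7.12 and 3.596 FPKM with RANKL, against 0.303, 0.781 and 0.772 FPKM in Jmjd6-/- stroma. Ccdc80, a secreted matrix protein of mesenchymal cells, and Col27a1, a fibrillar collagen chain, were the most expressed of the group. Ccdc80 had 23.5, 31.3 and 26.2 FPKM in WT and 10.95, 9.92 and 9.52 FPKM in Jmjd6-/- stroma. Col27a1 had 18.3, 16.7 and 14.8 FPKM in WT and 5.16, 7.07 and 6.51 FPKM in Jmjd6-/- stroma. For both genes the gap was smaller than for Mfap4, with falls of 2.67-fold and 2.66-fold, and rested on 616 to 1382 fragments in the Jmjd6-/- libraries.

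Dpt encodes dermatopontin, which binds decorin and collagen fibrils. It had 11.6, 9.69 and 14.1 FPKM in WT and 3.54, 4.13 and 2.95 FPKM in Jmjd6-/- stroma. Spon1, or F-spondin, had 3.65, 6.17 and 4.40 FPKM in WT and 1.21, 1.26 and 1.16 FPKM in Jmjd6-/- stroma. Htra3, a secreted serine protease, had 2.11 FPKM in unstimulated WT stroma and 4.11 and 4.83 FPKM with RANKL, against 0.885, 0.967 and 0.674 FPKM. Both WT libraries with RANKL were above the unstimulated one for Htra3, while in Jmjd6-/- stroma 1 lay above it and 1 below.

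Ogn, a small leucine-rich proteoglycan, had 7.73 FPKM in unstimulated WT stroma and 3.20 and 3.22 FPKM with RANKL, and 1.18, 0.764 and 0.676 FPKM in Jmjd6-/- stroma. Its entry spans 188673 bases of chromosome 13 and overlaps the entries of Aspn, Cenpp, Ecm2 and Omd, so the assignment of reads to it is uncertain. Emilin1, an elastic fibre glycoprotein, was the gene closest to the limit, with 4.90, 6.35 and 5.55 FPKM in WT and 2.399, 2.43 and 2.36 FPKM in Jmjd6-/- stroma.

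Of 12 mesenchymal markers, Dpt was the only one among the 37 genes. Every Jmjd6-/- library lay below every WT library in 6 of the other 11, against 8.61% of the genes the rule could choose. By limma, 6 of these 11 were lower in Jmjd6-/- stroma (Col1a1, Col1a2, Col3a1, Fbln1, Lum and Thy1) and Acta2, smooth muscle actin, was higher by 1.26 (SE 0.22, adjusted p = 0.0281). Over all tested genes 3.38% were lower and 2.05% higher. Col3a1, a collagen of reticular fibres, fell by 1.02 on the log2 scale (SE 0.08, adjusted p = 0.00342), from 266, 245 and 235 FPKM in WT to 127, 125 and 115 FPKM in Jmjd6-/- stroma. The summed list, Dpt included, was 800.1, 897 and 894 FPKM in WT and 392.3, 571 and 554 FPKM in Jmjd6-/- stroma, with no marker at 0. The count of 6 fell to 0 with no filter on low values, where the genes called lower among all tested fell from 538 to 3. It also fell when either Jmjd6-/- RANKL library was left out, as did the number called lower among all tested genes. The part of mesenchymal content in the 8 matrix genes was not tested. By contrast none of 14 cortical and none of 14 mTEC markers was lower in Jmjd6-/- stroma by limma, and 1 and 2 of them were higher.

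Secreted immune proteins numbered 3 among the 37 genes. Cxcl13, the chemokine that draws B cells into follicles through CXCR5, was the most expressed of the 37 genes by its WT mean. It had 26.5 FPKM in unstimulated WT stroma and 41.7 and 27.3 FPKM with RANKL, against 4.75, 6.58 and 7.36 FPKM in Jmjd6-/- stroma, a fall of 5.11-fold between means. Serping1, the C1 inhibitor of the complement and contact systems, had 9.33, 14.5 and 10.6 FPKM in WT and 3.74, 3.42 and 3.70 FPKM in Jmjd6-/- stroma. Saa3, an acute phase protein, had 5.14 FPKM in unstimulated WT stroma and 17.9 and 23.2 FPKM with RANKL, against 2.12, 2.41 and 1.72 FPKM, so the genotypes were much further apart with RANKL than without. None of the 28 genes of an interferon response list was among the 37, although 26 of them were lower in Jmjd6-/- stroma and 26 higher with RANKL by limma, and 11 had every Jmjd6-/- library below every WT library. Over all tested genes 3.38% were lower in Jmjd6-/- stroma and 10.5% higher with RANKL. That order of libraries was met by 8.61% of the genes the rule could choose.

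Among receptors, Adra2c and Gfra4 were the lowest genes after the Jmjd6 locus by the ratio of the largest Jmjd6-/- to the smallest WT value, at 0.137 and 0.149. Adra2c, the alpha-2C adrenergic receptor, had 4.09 FPKM in unstimulated WT stroma and 2.56 and 3.35 FPKM with RANKL, against 0.350, 0.181 and 0.177 FPKM in Jmjd6-/- stroma. Gfra4, the co-receptor for the neurotrophic ligand persephin, had 11.7, 14.1 and 10.3 FPKM in WT and 1.54, 1.03 and 1.09 FPKM in Jmjd6-/- stroma. The falls between means were 14.1-fold and 9.87-fold.

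Ngfr, the p75 neurotrophin receptor of nerve and mesenchymal cells, had 2.59, 4.11 and 2.94 FPKM in WT and 1.08, 1.02 and 0.953 FPKM in Jmjd6-/- stroma. It was the only one of 11 Schwann cell and neuron markers among the 37 genes, and no other tested marker of that list was lower by limma, while Stmn2, a regulator of neuronal microtubules, was higher (13.6, 19.5 and 20.4 against 48.3, 67.5 and 64.3 FPKM). The list summed to 23.4 to 35.5 FPKM in WT and 57.8 to 80.2 FPKM in Jmjd6-/- stroma, with Th at 0 in at least 1 library. Without Stmn2 it summed to 9.87, 16.04 and 13.8 FPKM in WT and 9.48, 12.7 and 11.2 FPKM in Jmjd6-/- stroma. Both sums still hold Ngfr, whose order the rule fixed, so the lower Jmjd6-/- sums without Stmn2 are in part set by the choice. Chrna9, a nicotinic acetylcholine receptor subunit, had 5.59, 5.05 and 6.33 FPKM in WT and 2.38, 1.59 and 1.53 FPKM in Jmjd6-/- stroma.

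Genes of cell fate or the cell cycle numbered 4, with falls from 2.53-fold to 4.62-fold. Ccnd1, cyclin D1 of the G1 phase, had 5.40, 7.85 and 6.43 FPKM in WT and 2.59, 2.66 and 2.53 FPKM in Jmjd6-/- stroma. Mfng, the Manic fringe glycosyltransferase that modifies Notch receptors, had 1.48, 1.35 and 2.14 FPKM in WT and 0.466, 0.274 and 0.333 FPKM. Lhx8, a LIM homeobox factor, had 1.65 to 2.60 FPKM in WT and 0.488 to 0.616 FPKM in Jmjd6-/- stroma. Msi1, an RNA-binding protein of progenitor cells, was the steadiest of the 4 in WT, at 3.33 to 3.87 FPKM, and had 0.922 to 1.20 FPKM in Jmjd6-/- stroma.

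The other 8 genes have no common role. Car3, a carbonic anhydrase abundant in fat and muscle, varied most among WT libraries, with 3.49 FPKM unstimulated and 24.7 and 6.33 FPKM with RANKL, against 0.195, 0.848 and 1.15 FPKM in Jmjd6-/- stroma. The first WT RANKL library was also the highest for adipocyte markers, among them Adipoq at 12.9 FPKM, where the other WT libraries had 0.987 and 3.18 and the Jmjd6-/- libraries 0.113 to 0.547 FPKM. The 10 adipocyte markers summed to 13.9, 110 and 67.9 FPKM in WT and 9.30, 22.3 and 22.7 FPKM in Jmjd6-/- stroma, with Lep, Cfd, Cidec, Retn and Ucp1 at 0 in at least 1 library. Most of this sum was Fabp4 alone, at 9.58, 71.5 and 58.1 FPKM in WT and 6.85, 19.9 and 19.1 FPKM in Jmjd6-/- stroma. Of the 8 that could be tested, 2 (Adipoq and Fabp4) were lower in Jmjd6-/- stroma by limma, against 3.38% of all tested genes. The 12 skeletal muscle markers summed to 3.84, 7.28 and 8.48 FPKM in WT and 3.29, 3.01 and 3.44 FPKM in Jmjd6-/- stroma. Every Jmjd6-/- library lay below every WT library in 4 of these 12, against 8.61% of the genes the rule could choose. None of the 7 that could be tested was lower by limma. The part of fat or muscle cells in the Car3 values was not tested.

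Beta-s, an adult beta-globin chain of red blood cells (Hbb-bs in the current annotation), had 3.97, 3.01 and 10.7 FPKM in WT and 1.07, 0.832 and 1.00 FPKM in Jmjd6-/- stroma. The second WT RANKL library was highest for Beta-s and for the summed erythroid list, at 31.0 FPKM against 9.89 and 10.97 FPKM in the other WT and 4.96 to 6.44 FPKM in the Jmjd6-/- libraries. Beta-s, whose order the rule fixed, is part of that sum. Slc4a1 of that list was at 0 in at least 1 library, and the part of red cells was not tested. Globin genes are near-identical copies, so reads may have been split between them. Ms4a4d, a membrane protein with 4 transmembrane segments, had 2.14, 3.92 and 2.81 FPKM in WT and 0.570, 0.482 and 0.360 FPKM in Jmjd6-/- stroma.

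Bzrap1 (Tspoap1), a scaffold protein of synapses, had 5.54, 4.24 and 3.35 FPKM in WT and 1.08, 0.935 and 0.877 FPKM in Jmjd6-/- stroma. Spef1, a microtubule-binding protein of cilia and flagella, had 3.52 to 4.11 FPKM in WT and 1.13 to 1.72 FPKM in Jmjd6-/- stroma. 2310015B20Rik, now named Mrln, encodes a micropeptide that inhibits the calcium pump of muscle, and its 0.604 to 0.974 FPKM in Jmjd6-/- stroma against 2.43 to 3.63 FPKM in WT stood for only about 3.57 to 7.02 fragments. C130074G19Rik had 1.16 to 2.04 FPKM in WT and 0.436 to 0.556 FPKM in Jmjd6-/- stroma. 2310040G24Rik, the only one of the 37 annotated as a long non-coding RNA, had 6.49 to 7.82 FPKM in WT and 1.81 to 2.90 FPKM in Jmjd6-/- stroma.

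At the edge of the rule, the ratio of the largest Jmjd6-/- to the smallest WT value was 0.495 for Emilin1, 0.493 for Ccnd1, 0.490 for Spef1 and 0.480 for C130074G19Rik. Just outside it were Fibin at 0.503, Scx at 0.504, Cxcl1 at 0.506 and Angptl4 at 0.508. The genes on either side of the limit thus differed by less than their libraries did.

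Few of the 37 genes passed the test for RANKL. Over all 15894 tested genes, limma with genotype as a term called 1675 (10.5%) higher and 654 (4.11%) lower with RANKL, whereas among the 37 genes it called none higher and 1 lower, with 7 at an unadjusted p under 0.05. Their log2 change was within 0.5 of 0 for 30 of the 37, against 74.97% of all tested genes and 85.2% of the genes the rule could choose. The share of small changes was thus not above that of the genes the rule could choose. A rule that compares the lowest WT with the highest Jmjd6-/- value across both states can favour genes with a small response. The part of the choice in these counts was not tested. The median log2 change was 0.12, and -0.02 over all tested genes.

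The gene that passed was Ogn, which fell by 0.94 on the log2 scale with RANKL (SE 0.20, adjusted p = 0.0230), lower in both stimulated libraries of each genotype than in the unstimulated one. It no longer passed without the first (adjusted p = 0.0540 from limma) or the second Jmjd6-/- RANKL library (0.0738), or with no filter on low values (0.0918). With 1 RANKL library left out its change was between -1.02 and -0.90. Car3 had the largest change, 1.85 (SE 0.49, adjusted p = 0.0522), higher with RANKL in 4 of 4 stimulated libraries, and it passed when either WT RANKL library was left out (1.43 without the first and 2.27 without the second). The other 5 with an unadjusted p under 0.05 were Mfap4 at 0.75, Cxcl13 at 0.44, Bcl6b at -0.50, Gpihbp1 at -0.53 and Adra2c at -0.58, with adjusted p from 0.127 to 0.167. Without the second WT RANKL library Mfap4 and Cxcl13 were called higher and Gpihbp1 lower.

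The 8 endothelial genes as a group showed no common response (median log2 change -0.10), while 4 of the 10 genes of the endothelium list were lower with RANKL by limma. Those were Cdh5 (-1.15, SE 0.15, adjusted p = 0.00409), Pecam1, Tie1 and Kdr. Whether the groups differ in this was not tested. The matrix group had a median change of 0.11 and the 3 secreted immune proteins of 0.44.

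The difference of the RANKL response between genotypes was not detected in any of the 37 genes by limma after adjustment, nor in any of the 15894 tested genes (0%), of which 664 had an unadjusted p under 0.05. The smallest adjusted p among the 37 genes was 0.712, for Saa3. Saa3 rose by 1.97 on the log2 scale with RANKL in WT and changed by -0.05 in Jmjd6-/- stroma, a difference of -2.02 (SE 0.40, unadjusted p = 0.00321 from limma), and both stimulated WT libraries were over 3-fold above the unstimulated one. Htra3 changed by 1.04 in WT and -0.12 in Jmjd6-/- stroma, a difference of -1.16 (SE 0.44, unadjusted p = 0.0424 from limma, adjusted p = 1.00). Neither difference passed after this adjustment.

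**Figure D4:**
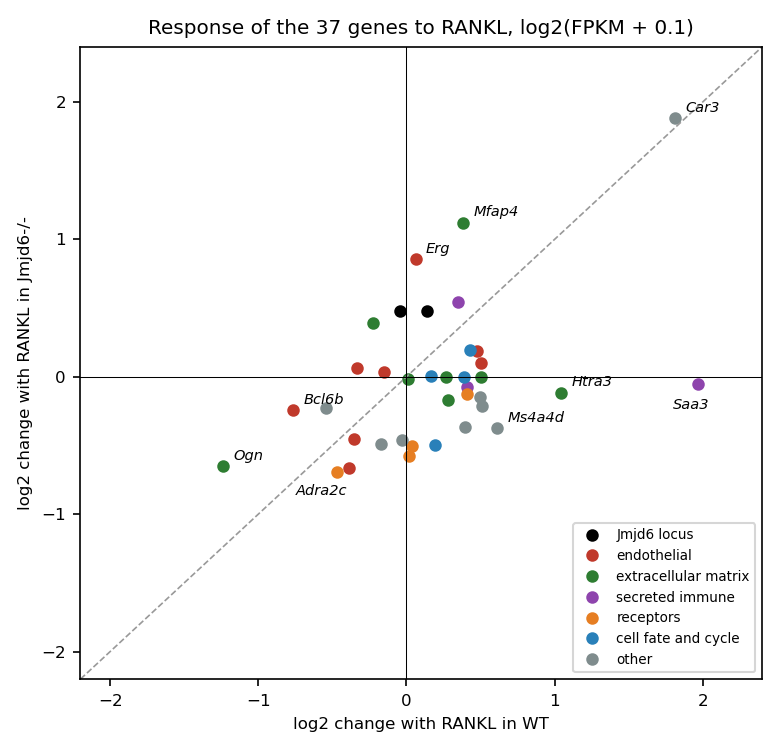
Log2 change with RANKL of the 37 genes in WT (horizontal axis) and Jmjd6-/- stroma (vertical axis), each the mean of 2 stimulated libraries less 1 unstimulated library after adding 0.1 to FPKM, coloured by role. The dashed line marks equal change. Most points lie within 0.5 of 0 on both axes, Car3 lies near the line at 1.81 and 1.88, Ogn at -1.24 and -0.65, and Saa3 (1.97 and -0.05) and Htra3 (1.04 and -0.12) lie to the right of it.

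The spread between replicates was wider for these genes than for the median gene. The median absolute log2 difference between RANKL replicates over the 37 genes was 0.36 in WT and 0.21 in Jmjd6-/- stroma, against 0.28 and 0.08 over 12587 genes whose mean reached 1 FPKM. The highest WT library was over 2-fold above the lowest in 5 of the 37 genes, and 7.06-fold in Car3.

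On the chromosomes, 8 of the 37 genes lay on chromosome 11, which carries Jmjd6 (21.6%, against 8.62% of the genes the rule could choose), and 6 on chromosome 5 (16.2% against 6.44%). The 8 include Jmjd6, the targeted gene, and its neighbour Mettl23, so the share on chromosome 11 holds the targeted locus itself. On chromosome 11, besides Jmjd6 and Mettl23, Icam2 lay 10.5 Mb and Ramp2 15.6 Mb from Jmjd6, and Ngfr, Bzrap1, Bcl6b and Mfap4 from 21.3 to 55.4 Mb. A segment of another strain can remain around a targeted gene after backcrossing. Within 5 Mb of Jmjd6, 146 other genes could have been chosen and Mettl23 alone was, while 22 (15.1%) had every Jmjd6-/- library below and 9 (6.16%) above every WT library. Within 20 Mb these counts were 40 (12.1%) and 36 (10.9%) of 330, against 8.38% and 9.55% on the other autosomes. The part of such a segment was not tested.

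**Figure D5:**
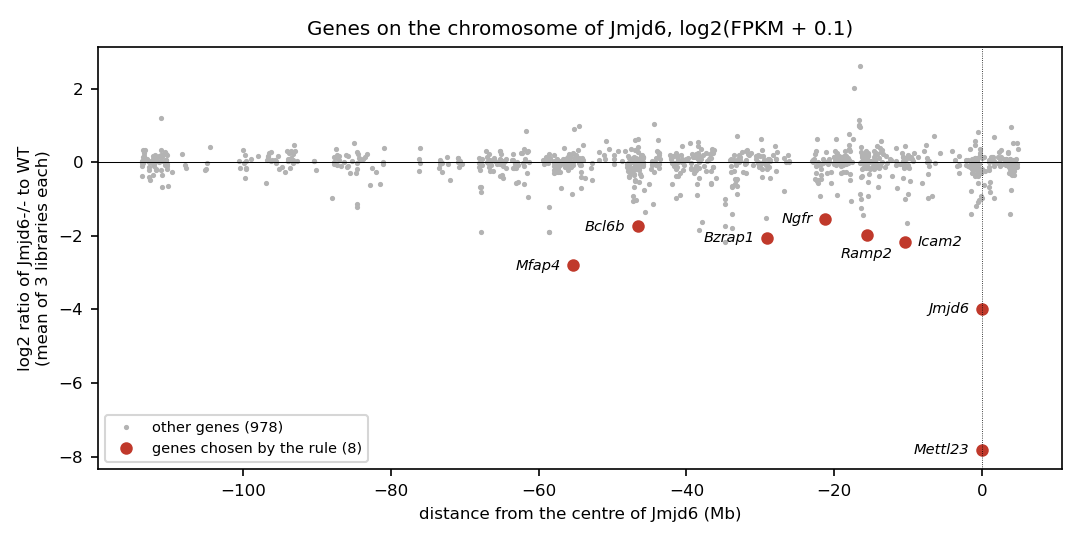
Log2 ratio of Jmjd6-/- to WT (means of 3 libraries each, after adding 0.1 to FPKM) of genes on the chromosome of Jmjd6 against their distance from it in Mb. Distance runs from the start site of Jmjd6, which the axis label calls its centre, to the middle of each gene. Red points are the 8 genes chosen by the rule and grey points the other 978. Mettl23 and Jmjd6 stand at distance 0, and the other 6 red points are spread from 10.5 to 55.4 Mb away among grey points near 0.

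Other members of the group were near each other on 2 chromosomes. Gfra4 and Spef1 lie 127 kb apart on chromosome 2 (chr2:131039632-131043088 and chr2:131170261-131174810, both on the minus strand), and 1700037H04Rik between them was not lower, with 11.1, 14.3 and 12.4 FPKM in WT and 10.01, 14.1 and 13.9 FPKM in Jmjd6-/- stroma. Adra2c and Htra3 lie 370 kb apart on chromosome 5. All 37 genes were found in GENCODE, 3 of them under a current symbol, and 36 were annotated as protein coding. For 11 an annotated gene overlaps on the opposite strand, so reads of the 2 strands may not have been kept apart. The share of such overlaps over the other genes was not counted. Their longest transcripts had a median of 2200 bases, against 3386 for the genes the rule could choose, and a median GC content of 52.3% against 49.7%.

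Because Erg, an ETS factor, was one of the 37 genes, the start regions were searched for the ETS core letters AGGAAG and for 4 general promoter motifs, on both strands. A RefSeq window of 300 bases (250 before and 50 after the start, GRCm38.p6) was found for 22 of the 37 genes. AGGAAG occurred in 13 of these (59.1%), against 35.1% of all 27025 windows. The TATA box letters TATAAA occurred in 18.2% against 14.2%, CCAAT in 40.9% against 37.9%, the GC box GGGCGG in 27.3% against 35.9% and the E-box CACGTG in 4.55% against 7.24%. The median number of CpG dinucleotides was 5, against 7 in all windows. Erg's own window holds TATAAA but not AGGAAG. Jmjd6 and Mettl23 share part of their windows. The 250 bases before the start are shown for 3 genes of different roles whose upstream sequence holds the ETS core, with AGGAAG and TATAAA of either strand in capitals:
Egfl7, chr2:26580833-26581082, plus strand: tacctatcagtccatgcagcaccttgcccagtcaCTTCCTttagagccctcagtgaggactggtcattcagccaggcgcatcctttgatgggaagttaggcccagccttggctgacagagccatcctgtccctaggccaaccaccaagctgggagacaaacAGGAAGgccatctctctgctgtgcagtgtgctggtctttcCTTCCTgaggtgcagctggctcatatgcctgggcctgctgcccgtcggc
Emilin1, chr5:30913536-30913785, plus strand: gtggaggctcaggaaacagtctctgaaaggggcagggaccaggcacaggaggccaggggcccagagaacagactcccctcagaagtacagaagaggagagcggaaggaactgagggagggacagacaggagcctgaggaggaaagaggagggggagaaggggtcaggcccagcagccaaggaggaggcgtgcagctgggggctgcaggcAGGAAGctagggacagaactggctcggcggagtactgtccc
Cxcl13, chr5:95956689-95956938, plus strand: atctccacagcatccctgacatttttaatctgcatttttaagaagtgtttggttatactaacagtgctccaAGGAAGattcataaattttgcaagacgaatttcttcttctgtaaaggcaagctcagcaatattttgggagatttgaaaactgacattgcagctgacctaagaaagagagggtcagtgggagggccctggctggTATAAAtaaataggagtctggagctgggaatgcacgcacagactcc
Egfl7 has 3 such matches in this stretch and Emilin1 has 1. Cxcl13 has 1 match and, close to the start, the letters TATAAA. These matches describe the letters of the windows and were not measured as sites.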

How the data were processed

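Gene-level FPKM values were used as deposited for 6 libraries. The authors had purified poly-A RNA, prepared libraries with a TruSeq kit, sequenced them in paired-end mode, mapped reads to mm10 with TopHat2 2.0.10 and computed FPKM per gene with Cufflinks 2.1.1, correcting for multiply mapped reads and assuming strand-specific libraries. Groups came from sample titles and the stimulation field, as the treatment protocol names RANKL throughout.

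The genes and lists were chosen with earlier results of these data known, and the role groups and promoter motifs after the 37 genes were seen. Log2 values are log2(FPKM + 0.1). limma 3.58.1 in R 4.3.3 was fitted to the 15894 entries whose mean reached 0.1 FPKM, letting the variance depend on the mean, and p-values were adjusted over all of them by Benjamini-Hochberg and called at 0.05. RANKL and genotype were fitted as additive terms, and the difference of responses as an interaction. On simulated data it was tested for recovery of known changes. Genotype results for list genes outside the 37 were added after the data were seen. Depth was judged from the spacing of low FPKM values and is approximate, and a value of 0 was taken to allow 3 fragments, which covers counting error only.

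Named genes were Jmjd6, the 12 with the lowest ratio of largest Jmjd6-/- to smallest WT value, the 8 most expressed in WT, those within 20 Mb of Jmjd6, in a marker list, past a test, within 200 kb of another, and the 4 on each side of the limit. The rest are named to account for every gene. Of 20 gene lists, 4 held a gene of the 37 (endothelium, mesenchyme, Schwann cell and neuron, erythroid). Alternatives covered the limits of the rule, the added constant, the filter, the trend, scaling, left-out libraries and a replicate block. With equal replicate numbers the deviations of the RANKL libraries correlated at -0.08 over 12587 genes, so the numbers were not taken as a pairing.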

Additional observations from a re-analysis of the deposited data

How the results depend on the processing

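The rule chose 37 genes. It chose 122 with a ratio limit of 1/1.5 and 12 with 1/3, 324 in the 4 RANKL libraries alone, 290 in the 2 unstimulated ones, 80 without the unstimulated Jmjd6-/- library (chosen after seeing the data), and 44 to 52 with 1 RANKL library left out. Scaling gave 39 or 40 genes, of which 36 and 35 were among the 37. Adding 1 instead of 0.1 moved the median log2 ratio to -1.42 with RANKL and -1.12 without, and leaving out a RANKL library gave -2.06 to -1.87. Members higher with RANKL numbered 1 (Car3) with 0.01 added and with the replicate block, and 0 to 3 without 1 library. Members lower with RANKL numbered 0 with no filter on low values and with the replicate block, and 0 to 2 without 1 library. Members whose response differed between genotypes numbered 1 (Saa3) with the replicate block and 0 in the other alternatives. The cause was not tested. The replicate numbers share no source, so the block is given only as an alternative. Under it Ogn fell by 0.91 on the log2 scale and no longer passed. Where a stimulated group was left with 1 library, its spread was assumed to be that of the other groups. No direction reversed. Unreplicated unstimulated libraries and Jmjd6-/- values of under 10 fragments limit the precision.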
